A study of Mus musculus with 28 samples.

Results

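The livers of fasted mice were set directly against the livers of fed control mice on 8 two-colour microarrays, out of 28 in the series. On such an array 2 RNA samples are labelled with the dyes Cy3 and Cy5 and compete for the same spots, so each spot gives a ratio. The 8 arrays were chosen because their titles name a control and a fasted liver. They form 4 mouse pairs, of 14 in the series, and each pair was hybridised a second time with the names and dyes listed in the opposite order. The 2 arrays of a pair were turned to fasted over control, averaged and counted as 1 replicate. All 8 mice were C57BL/6, an inbred strain, 12 to 16 weeks old. Control mice ate chow for 2 weeks, and fasted mice ate chow for 2 weeks and were then without food for 16 hours. Their sex is not stated in the labels. The other arrays compared each of these groups with mice kept for 2 weeks on a high-fat diet, and they enter below only where they measure the same 8 mice again or share in the estimate of the spread. Pair 1 joined fasted mouse 11 and control mouse 4, pair 2 fasted 15 and control 2, pair 3 fasted 13 and control 5, and pair 4 fasted 14 and control 3.

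During a fast the liver turns from storing fuel to releasing it. Fat from adipose tissue is burned in mitochondria and peroxisomes and made into ketone bodies, glycogen breakdown and gluconeogenesis supply glucose, and the making of fatty acids and cholesterol, which insulin favours, slows. The nuclear receptor PPARalpha drives many genes of fat burning, SREBP and ChREBP drive those of fat and sterol synthesis, and FXR and its target SHP restrain bile acid synthesis.

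A value below is the mean log2 ratio of fasted over control ± SD over the 4 pairs, so that 1 is a doubling and -1 a fall to 1 part in 2, and values of single pairs are given in the order of pairs 1 to 4. The direction is likely but not stated by the depositors: it is read from the order of names in the titles and the dyes of the first array of each pair, and the opposite reading would swap every rise for a fall. The labels do not settle that the dyes were exchanged: on the second arrays both the order of the names and the order of the dyes are reversed, and if names and dyes are matched in order the fasted liver carries Cy5 on both arrays. Turning the second array rests on its deposited ratios, which for Apoa4 and Abcb11, for example, had the opposite sign to those of the first array in all 4 pairs. Both genes were picked among those that passed after turning, where opposite signs are favoured, so they do not settle it. For Ttr the deposited signs were the same on both arrays in all 4 pairs. Over all spots the arrays correlated negatively in pairs 1 and 3 and positively in pairs 2 and 4. Whether averaging removes a dye bias therefore depends on an exchange that the labels leave unsettled. A gene passed when limma, a linear model fitted to all features at once, gave an adjusted p under 0.05, by the Benjamini-Hochberg method over 11457 features. The spread behind that p was pooled over all 14 pairs. The p therefore does not measure the SD of the 4 direct pairs that is printed beside it. The arrays give ratios without brightness, so signal over background is unknown here, and precision is limited by having 4 pairs.

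The 4 pairs were not alike. The second array of pair 2 had an SD of 1.26 over its spots, against 0.489 to 0.839 on the other 7 arrays of fasted and control livers and 0.293 to 0.823 on the 20 other arrays of the series. In pair 2, 630 of 4799 named genes lay beyond a log2 ratio of 1 in either direction, against 102 in pair 1, 124 in pair 3 and 71 in pair 4. Across named genes, which are not independent replicates, the ratios of pairs 1 and 3 correlated with the mean of the other pairs at r = 0.718 and 0.592, and those of pairs 2 and 4 at 0.268 and 0.294. Before turning, 2 arrays of opposite direction would correlate negatively if the difference between the livers prevailed. The r was -0.162 in pair 1, 0.167 in pair 2, -0.0437 in pair 3 and 0.233 in pair 4.

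**Figure D1:**
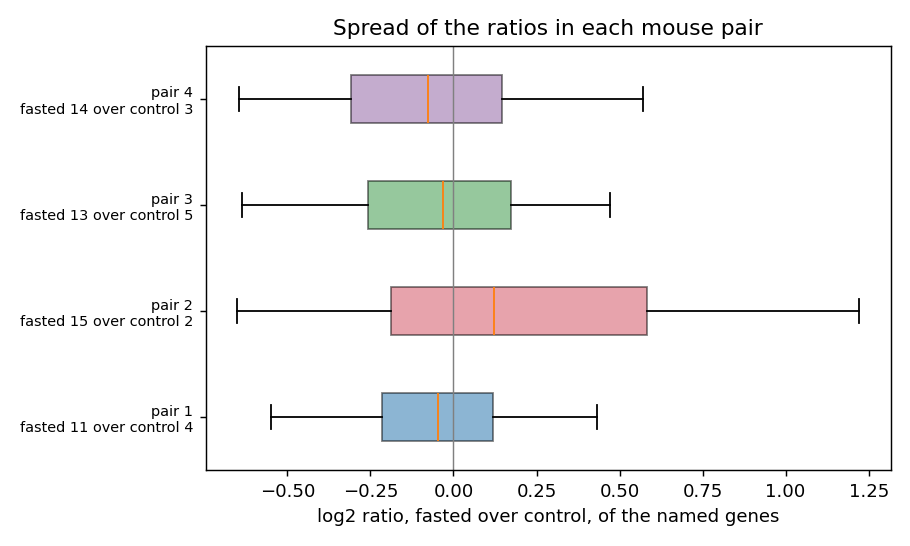
Log2 ratios of fasted over control (horizontal axis) of the 4799 named genes in each of the 4 mouse pairs. Boxes span the quartiles with the median, and whiskers the central 90% of genes. The box and whiskers of pair 2, whose second array had an SD of 1.26, are the widest.

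Of the 4799 named genes 441 passed, 9.19%. The counts of each gene list below are to be read beside this share. After the fast 184 were higher, 3.83% of those named, and 257 were lower, 5.36%. The median of all named genes was 0.02. At an unadjusted p under 0.05 there were 1040. In 417 of the 441 the 4 pairs had the same sign, and in 242 all 8 arrays did. Choosing genes on the mean of these pairs favours such agreement. Over all 4799 named genes, all 8 arrays had the same sign in 277. Of the genes that passed, 39 were at least 2-fold higher and 36 at least 2-fold lower. Without pair 2 the count was 464, of which 329 were among the 441, and without its wide array alone it was 990, of which 409 were. Without pair 1 it fell to 250 (113 higher and 137 lower), and without pair 3 the lower genes fell to 163. With the spread taken from the 4 direct pairs alone, on 3 residual degrees of freedom, 57 genes passed. Of 114 passing genes chosen for naming, 74 lost their call this way, and only some of them are marked below.

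The largest rise was in Apoa4, an apolipoprotein gene whose product travels on triglyceride-rich particles. Its log2 ratios were 5.24, 5.19, 4.95 and 4.57 in the 4 pairs, a mean of 4.99 ± 0.30 (SD, n = 4) or 31.7-fold (adjusted p = 8.02e-11). No other gene was this high in every pair, and the 8 single arrays all lay above 4. Pkm, the pyruvate kinase of muscle and of many other tissues, where hepatocytes mainly use the product of Pklr, had ratios of 3.41, 5.34, 3.30 and 2.68 and rose by 3.68 ± 1.15 (SD, n = 4, adjusted p = 1.63e-05). Its highest value was in pair 2. Cyp4a14, a fatty acid hydroxylase and PPARalpha target, had 3.71, 4.42, 3.30 and 3.04 and rose by 3.62 ± 0.60 (SD, n = 4, adjusted p = 1.53e-06). Ldhb, the lactate dehydrogenase subunit of heart, gave close values of 1.94, 2.49, 1.96 and 2.44 and rose by 2.21 ± 0.30 (SD, n = 4, adjusted p = 9.14e-07). Pklr itself had a ratio of 0.09 ± 0.18 and did not pass (adjusted p = 0.736).

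The largest fall was in Car3, a carbonic anhydrase also known from muscle and adipose tissue, with ratios of -3.91, -3.13, -3.22 and -1.31 and a mean of -2.89 ± 1.11 (SD, n = 4, adjusted p = 4.39e-05). Pair 4 showed the smallest fall. Hsd3b1, a hydroxysteroid dehydrogenase, had -2.28, -2.68, -3.02 and -1.50 and a mean of -2.37 ± 0.65 (SD, n = 4, adjusted p = 5.41e-05), and its 2 spots gave -2.69 and -2.05. Camp, which encodes the antimicrobial peptide cathelicidin, had -2.33, -2.26, -3.32 and -1.48 and a mean of -2.35 ± 0.75 (SD, n = 4, adjusted p = 3.02e-05). Fabp5, a fatty acid binding protein, had -1.95, -3.01, -2.26 and -1.92 and a mean of -2.29 ± 0.51 (SD, n = 4, adjusted p = 0.000882). For these genes too the 8 single arrays agreed in sign. Among the 15 largest falls, those with the least spread for their size were those of Abcb11 and of Lifr, the receptor of leukaemia inhibitory factor, which had ratios of -1.41, -1.54, -1.56 and -1.28 and a mean of -1.45 ± 0.13 (SD, n = 4, adjusted p = 2.22e-06). Probes of close families, such as Cyp4a, Hsd3b, Fabp, Acot, Gstm and Saa, can bind related transcripts, so the member is uncertain.

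**Figure D2:**
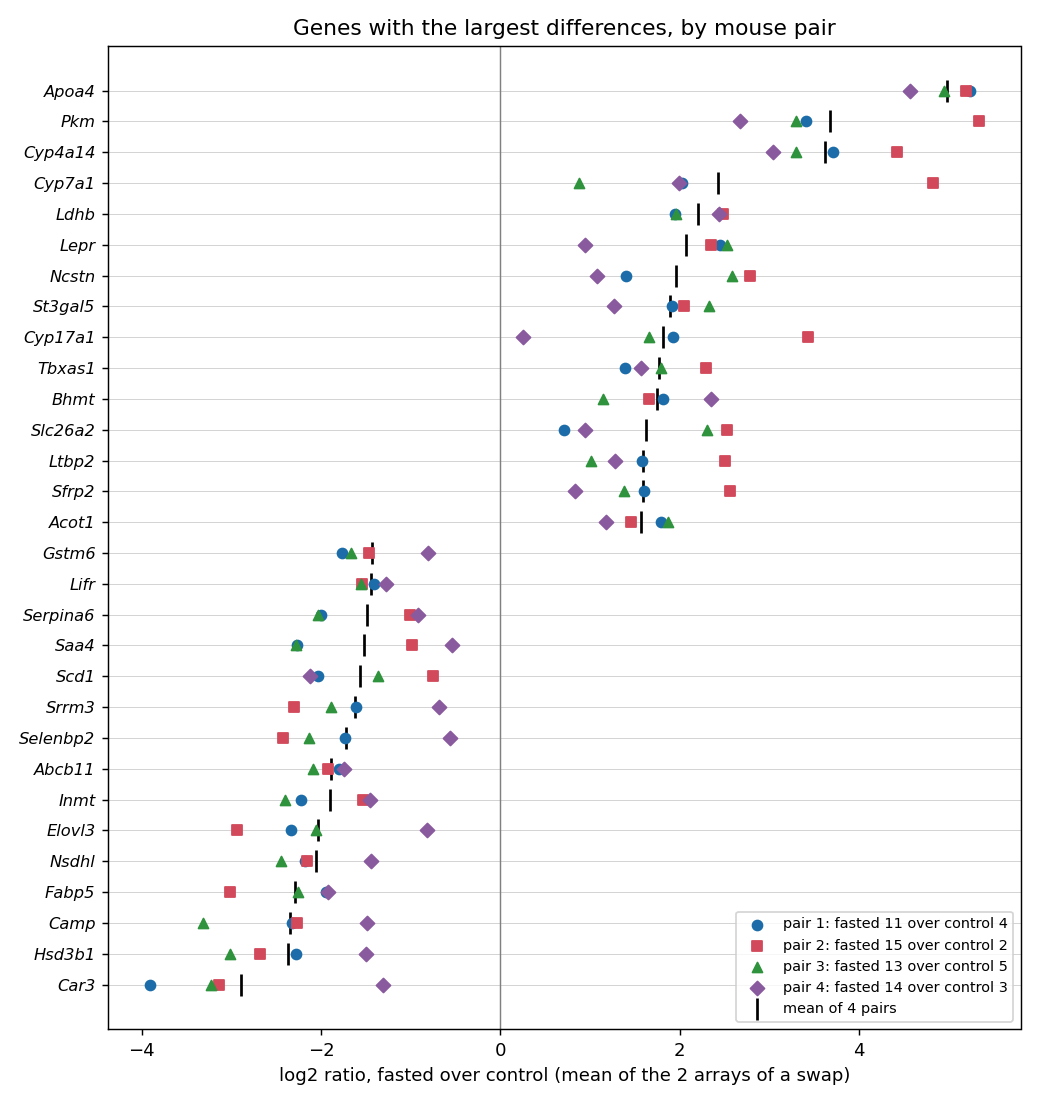
Log2 ratio of fasted over control (horizontal axis) in each of the 4 mouse pairs for the 15 genes with the largest rises and the 15 with the largest falls among those that passed with 1 sign in every pair. Points are single pairs and bars the means; Apoa4 stands highest in 3 of 4 pairs, and pair 4 is nearest 0 for Car3, Elovl3 and Selenbp2.

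Promoters of genes at both ends of this order are shown because the genes rose or fell in every pair. They are the first 3 of the rises and of the falls that have a sequence in the RefSeq promoter table, with 250 bases before the start of each gene, 5′ to 3′ on its own strand, from mouse assembly GRCm38.p6. Capitals mark matches to the motifs named after them. The first 3 belong to genes that rose and the last 3 to genes that fell.
Apoa4 promoter, GRCm38.p6 chr9:46240594-46240843, plus strand: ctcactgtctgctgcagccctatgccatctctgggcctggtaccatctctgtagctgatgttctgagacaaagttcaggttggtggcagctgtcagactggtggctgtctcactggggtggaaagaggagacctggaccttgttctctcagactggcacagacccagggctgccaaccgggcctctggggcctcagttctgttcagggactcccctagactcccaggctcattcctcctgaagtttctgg
Pkm promoter, GRCm38.p6 chr9:59656326-59656575, plus strand: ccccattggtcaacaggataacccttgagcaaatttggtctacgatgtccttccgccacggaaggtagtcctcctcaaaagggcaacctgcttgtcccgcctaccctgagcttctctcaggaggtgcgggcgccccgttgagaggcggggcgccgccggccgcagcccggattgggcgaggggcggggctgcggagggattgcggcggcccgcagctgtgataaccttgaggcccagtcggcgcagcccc
Ldhb promoter, GRCm38.p6 chr6:142507958-142508207, minus strand: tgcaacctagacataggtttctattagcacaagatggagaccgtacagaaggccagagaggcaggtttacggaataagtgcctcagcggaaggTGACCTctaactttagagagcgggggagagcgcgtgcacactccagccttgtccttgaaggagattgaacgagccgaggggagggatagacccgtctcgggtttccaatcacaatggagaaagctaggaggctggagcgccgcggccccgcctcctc
Hsd3b1 promoter, GRCm38.p6 chr3:98859795-98860044, minus strand: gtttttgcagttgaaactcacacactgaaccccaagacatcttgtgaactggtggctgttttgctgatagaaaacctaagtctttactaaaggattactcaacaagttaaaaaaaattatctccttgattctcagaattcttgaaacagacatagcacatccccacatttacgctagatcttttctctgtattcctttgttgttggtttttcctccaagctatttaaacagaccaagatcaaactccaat
Camp promoter, GRCm38.p6 chr9:109849457-109849706, minus strand: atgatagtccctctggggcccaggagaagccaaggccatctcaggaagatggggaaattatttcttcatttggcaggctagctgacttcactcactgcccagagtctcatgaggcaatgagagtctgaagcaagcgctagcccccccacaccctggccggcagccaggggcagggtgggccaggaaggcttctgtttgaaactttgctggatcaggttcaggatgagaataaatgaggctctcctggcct
Nsdhl promoter, GRCm38.p6 chrX:72918271-72918520, plus strand: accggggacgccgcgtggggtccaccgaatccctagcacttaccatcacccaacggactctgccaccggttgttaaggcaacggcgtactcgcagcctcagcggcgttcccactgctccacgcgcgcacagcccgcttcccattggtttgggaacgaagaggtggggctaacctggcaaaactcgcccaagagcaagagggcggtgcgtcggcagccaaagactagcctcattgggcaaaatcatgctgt

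The motifs searched on both strands were the nuclear receptor half-site AGGTCA, the pair of such half-sites 1 base apart in which G may stand for T, the forkhead motif GTAAACA, the E-box CACGTG, the cAMP response element TGACGTCA and the sterol response element TCACNCCAC. The single match was a half-site at positions -157 to -152 from the start of Ldhb, on the strand opposite to the printed one, so that it is printed as TGACCT. Half-sites also count where they are part of a pair. Among 27025 RefSeq promoters of this length, AGGTCA was in 13.8%, CACGTG in 6.05%, GTAAACA in 3.09%, TGACGTCA in 1.62%, TCACNCCAC in 1.04% and the pair of half-sites in 0.144%. Of 148 promoters of genes that rose, AGGTCA was in 18.2%, CACGTG in 11.5% and TGACGTCA in 3.38%. Of 218 promoters of genes that fell, these shares were 17.4%, 10.1% and 0%. Over the 3806 named genes with a promoter they were 11.7%, 7.96% and 2.05%. The forkhead motif was in 1.35% of the promoters of genes that rose and 1.83% of those that fell, the sterol response element in 0.676% and 1.38%, and the pair of half-sites in 0% and 0.459%. The genes that rose with a cAMP response element were Abce1, Cycs, Ldha, Orc5 and Sh3gl2, named after their values were seen. Of these, Abce1 lost its call without pair 2 or 4 (adjusted p = 0.0682 and 0.0561), Orc5 without pair 1 or 3 (adjusted p = 0.0732 and 0.0645) and Sh3gl2 without pair 1, 2 or 3 (adjusted p = 0.0916, 0.117 and 0.117). Ldha, the other main lactate dehydrogenase subunit, holds it at positions -12 to -5 and rose by 0.57 ± 0.16 (SD, n = 4, adjusted p = 0.0024). Cycs, the electron carrier cytochrome c, holds it at positions -169 to -162 and rose by 0.63 ± 0.21 (SD, n = 4, adjusted p = 0.0018, and 0.138 from the second arrays alone, at 0.50). A match is a match of letters and was tested for nothing else.

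The genes of fat burning that passed were mostly higher. Of 20 measured PPARalpha targets 8 rose and 2 fell, with a median log2 ratio of 0.37 against 0.02 over all named genes. Besides Cyp4a14 they included Vnn1, a pantetheinase, whose ratios of 1.55, 1.23, 1.19 and 1.27 lay close together (mean 1.31 ± 0.16, SD, n = 4, adjusted p = 1.14e-05). Acot1, a thioesterase that frees fatty acids from coenzyme A, had 1.79, 1.45, 1.87 and 1.18 and rose by 1.57 ± 0.32 (SD, n = 4, adjusted p = 0.00153). The 2 that fell were Fabp1, the liver fatty acid binding protein, at -1.35 (adjusted p = 0.00269), and Aqp7, a glycerol channel, with ratios of -1.18, -1.18, -1.10 and -0.81 and a mean of -1.07 ± 0.18 (SD, n = 4, adjusted p = 7.08e-05). Several targets often followed in fasted liver did not pass. Fgf21, a hormone secreted by fasted liver, had 1.18, 0.23, 0.95 and 0.04 (adjusted p = 0.0632); without pair 2 its adjusted p was 0.0443, without pair 4 0.0263 and without the wide array 0.00869. Pdk4, a kinase that shuts pyruvate dehydrogenase, had a mean of 0.26 ± 0.26 (SD, n = 4, adjusted p = 0.294). Angptl4, an inhibitor of lipoprotein lipase, had -0.15 ± 0.49 (SD, n = 4, adjusted p = 0.696), and Ppara itself 0.02 ± 0.58 (SD, n = 4, adjusted p = 0.969).

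In mitochondria, 6 of 12 measured genes of fatty acid oxidation rose and 0 fell, with a median of 0.45. Slc25a20, the carrier that brings acylcarnitines across the inner membrane, had ratios of 0.63, 0.26, 0.48 and 0.66 (mean 0.51 ± 0.18, SD, n = 4, adjusted p = 0.00788). Crat, carnitine acetyltransferase, had 0.81, 0.48, 0.74 and 0.41 (mean 0.61 ± 0.20, SD, n = 4, adjusted p = 0.00533). The dehydrogenases of the first step of the cycle rose as well, Acadl by 0.56 ± 0.25 (SD, n = 4, adjusted p = 0.00252) and Acadm by 0.49 ± 0.22 (SD, n = 4, adjusted p = 0.0043). Over both arrays these were rises of 1.41- to 1.53-fold, present in every pair. In peroxisomes and microsomes 8 of 21 measured genes rose and 1 fell, 42.9%, with a median of 0.29. Slc27a2, which activates very long-chain fatty acids, had 0.68, 0.54, 0.51 and 0.77 (mean 0.62 ± 0.12, SD, n = 4, adjusted p = 0.000379). Ech1 and Hsd17b4, enzymes of peroxisomal breakdown of fatty acids (Ech1 acts in mitochondria too), rose by 0.64 ± 0.15 and 0.61 ± 0.20 (SD, n = 4, adjusted p = 0.000969 and 0.00198). The gene that fell was the racemase Amacr, at -0.47 (adjusted p = 0.00727). Without pair 1 the passing genes numbered 3 of 12 and 5 of 21, and Slc25a20 was not among them (adjusted p = 0.054). From the second arrays alone 0 of the 12 passed and from the first arrays alone 9. On the second arrays Acadl, Acadm, Crat and Slc25a20 were at 0.22, 0.25, 0.32 and 0.18 (adjusted p = 0.591, 0.416, 0.33 and 0.631), and Slc27a2, Ech1 and Hsd17b4 at 0.22, 0.49 and 0.30 (adjusted p = 0.599, 0.168 and 0.429). Of ketone body genes 2 were measured, both monocarboxylate carriers. Slc16a7 had 0.67, 1.45, 0.72 and 0.67 and rose by 0.88 ± 0.39 (SD, n = 4, adjusted p = 0.000799, and 0.058 from the second arrays alone, at 0.77). Slc16a1 did not pass at 0.27 (adjusted p = 0.307).

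Genes for the making of cholesterol and fatty acids were lower where they passed, apart from Npc1. Of 8 measured genes of cholesterol synthesis and uptake 5 fell and 1 rose, 75.0% against the 9.19% of all named genes. Their median was -0.63. Nsdhl, a sterol dehydrogenase, had ratios of -2.18, -2.15, -2.44 and -1.45 and a mean of -2.06 ± 0.43 (SD, n = 4, adjusted p = 1.83e-05). Cyp51, the lanosterol demethylase, had -1.70, -1.85, -1.47 and -0.21 and a mean of -1.31 ± 0.75 (SD, n = 4, adjusted p = 0.00121), with pair 4 apart from the others. With the spread of the direct pairs alone Cyp51 did not pass (adjusted p = 0.104). Nor did Ebp, Dhcr7 and Npc1, described next (adjusted p = 0.0737, 0.207 and 0.273). The isomerase Ebp fell by 0.77 ± 0.20 (SD, n = 4, adjusted p = 0.000169), the reductase Dhcr7 fell by 0.51 ± 0.21 (SD, n = 4, adjusted p = 0.00491), and squalene synthase, Fdft1, was at -0.75 (adjusted p = 0.00637). The rise was in Npc1, which carries cholesterol out of lysosomes, with 0.41 ± 0.12 (SD, n = 4, adjusted p = 0.0115, and 0.0578 without pair 1). From the second arrays alone Npc1 was at 0.16 (adjusted p = 0.671). With every array centred and scaled to 1 spread, 3 of the 8 passed.

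On the side of fatty acids and triglycerides, 6 of 19 measured genes of synthesis fell and 0 rose. Acss2, which makes acetyl-CoA from acetate, had -1.38, -1.18, -1.64 and -1.08 and a mean of -1.32 ± 0.25 (SD, n = 4, adjusted p = 1.06e-05). Mlxipl, which encodes ChREBP, had -0.97, -1.05, -0.83 and -1.26 and a mean of -1.03 ± 0.18 (SD, n = 4, adjusted p = 2.77e-05). Both were lower in every pair, with little spread. Scd1, the desaturase that makes oleate, had -2.03, -0.75, -1.36 and -2.13 (mean -1.57 ± 0.64, SD, n = 4, adjusted p = 0.000183), and Elovl3, an elongase, -2.34, -2.94, -2.06 and -0.81 (mean -2.04 ± 0.90, SD, n = 4, adjusted p = 7.01e-05). The malic enzyme Me1, a source of NADPH for lipid synthesis, fell by 0.42 ± 0.08 (SD, n = 4, adjusted p = 0.0122, and 0.0716 without pair 1), and Elovl1 was at -0.62 (adjusted p = 0.0024). The other 13 ranged from -0.17 for Tkt to 0.75 for Lpin1 (adjusted p = 0.202), which left the median of the list at -0.01.

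Glucose genes moved in part. Of 17 measured genes of gluconeogenesis and glucose release 3 rose and 1 fell. Slc37a4, the carrier that brings glucose 6-phosphate into the endoplasmic reticulum, had 1.44, 1.99, 1.33 and 1.47 and rose by 1.56 ± 0.30 (SD, n = 4, adjusted p = 2.31e-06). Pcx, pyruvate carboxylase, had 0.69, 0.73, 0.44 and 0.72 and rose by 0.65 ± 0.14 (SD, n = 4, adjusted p = 0.000143). From the second arrays alone Pcx was at 0.32 and did not pass (adjusted p = 0.37). The third was Ldhb, and the fall was in Fbp2, the muscle fructose bisphosphatase, by 0.44 ± 0.14 (SD, n = 4, adjusted p = 0.0132, and 0.0534 without pair 2). Pck1, which makes phosphoenolpyruvate, had ratios of 0.12, 0.44, 0.35 and 0.35, above 0 in every pair, and did not pass (adjusted p = 0.41). G6pc, glucose 6-phosphatase, had 0.03, 0.01, -0.84 and 0.59 and did not pass either (adjusted p = 0.94). The coactivator Ppargc1a had 0.27 ± 0.11 (SD, n = 4, adjusted p = 0.308). In the list of glycolysis and fructose metabolism 4 of 19 rose, Pkm, Aldoa, Ldhb and Ldha, and 1 fell. Aldoa, an aldolase, had 1.28, 1.90, 1.34 and 1.07 and rose by 1.40 ± 0.35 (SD, n = 4, adjusted p = 1.63e-05), while Khk, the fructose kinase, had -0.74, -0.77, -0.83 and -0.24 (mean -0.65 ± 0.27, SD, n = 4, adjusted p = 0.00189). Khk did not pass from the first arrays alone, at -0.27 (adjusted p = 0.217). Of 13 measured markers of skeletal muscle, where Pkm and Aldoa are abundant, Csrp3 rose and Pygm fell (adjusted p = 0.0563 without pair 2), and the median was 0.08.

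Bile acid genes moved both ways. Abcb11, the pump that exports bile salts into bile, had ratios of -1.80, -1.92, -2.08 and -1.74 and a mean of -1.89 ± 0.15 (SD, n = 4, adjusted p = 4.32e-06). Nr0b2, which encodes SHP, had -1.36, -1.36, -1.14 and -1.65 and a mean of -1.38 ± 0.21 (SD, n = 4, adjusted p = 4.81e-05). Nr1h4, which encodes FXR, rose by 0.63 ± 0.13 (SD, n = 4, adjusted p = 0.00262, and 0.205 from the second arrays alone, at 0.49). The enzymes of synthesis that passed were mostly higher. Cyp7a1, the rate-limiting enzyme, had 2.02, 4.82, 0.88 and 2.00 and a mean of 2.43 ± 1.68 (SD, n = 4, adjusted p = 0.00151), the widest spread of any gene that passed, and without pair 2 its mean was 1.63 (adjusted p = 0.000866). With the spread of the direct pairs alone Cyp7a1 did not pass (adjusted p = 0.14). Cyp8b1, which sets the share of cholic acid, had 1.29, 1.22, 1.16 and 1.42 and rose by 1.27 ± 0.11 (SD, n = 4, adjusted p = 0.000173). Cyp39a1, an oxysterol hydroxylase, had 1.36, 1.89, 1.65 and 1.00 and rose by 1.48 ± 0.39 (SD, n = 4, adjusted p = 3.59e-05). In all, 4 of 19 measured genes rose and 4 fell, the other falls being Amacr and Fgfr4, a receptor that relays FGF signals to bile acid synthesis, at -0.49 (adjusted p = 0.0146, and 0.0708 and 0.0749 without pair 3 or 4).

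**Figure D3:**
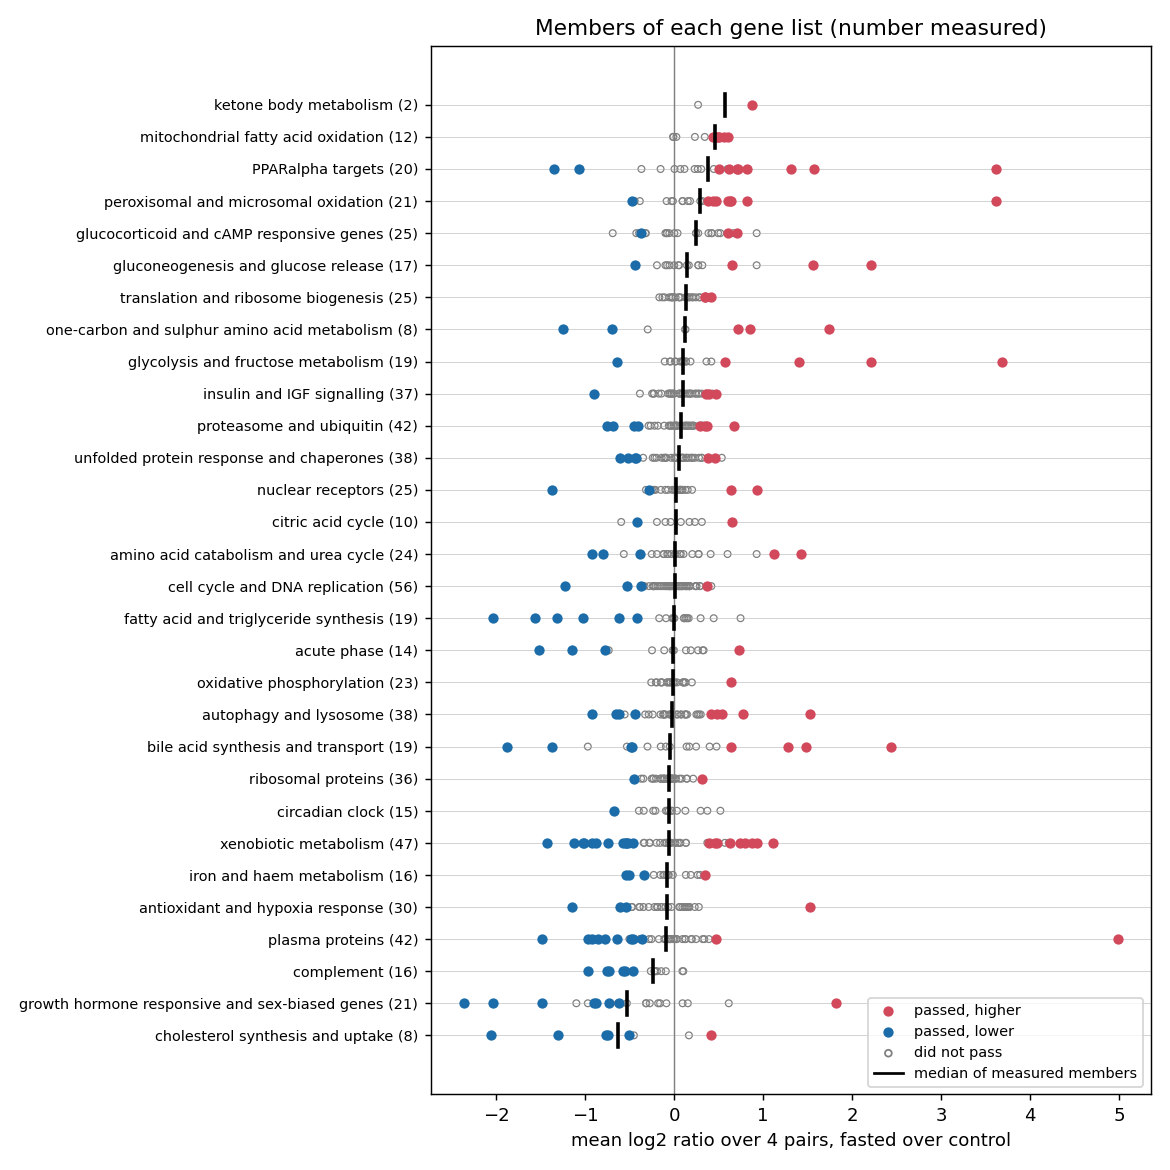
Mean log2 ratio of fasted over control over the 4 pairs (horizontal axis) for the measured members of the 30 process lists, with the number measured beside each name. Filled points passed, open points did not, and bars are medians; the medians run from -0.63 for cholesterol synthesis and uptake to 0.57 for the 2 ketone body genes, and 6 of 12 genes of mitochondrial fatty acid oxidation are filled and above 0.

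Genes of amino acid and methyl metabolism moved both ways. Bhmt, which remethylates homocysteine with betaine, had 1.81, 1.66, 1.15 and 2.35 and rose by 1.74 ± 0.50 (SD, n = 4, adjusted p = 0.00016). Ahcy, which splits S-adenosylhomocysteine, rose by 0.85 ± 0.37 (SD, n = 4, adjusted p = 0.00073, and 0.25 from the second arrays alone, at 0.53). Both lie on the path that recycles homocysteine. Gamt, which uses S-adenosylmethionine to make creatine, had -1.42, -1.57, -1.33 and -0.70 and a mean of -1.26 ± 0.39 (SD, n = 4, adjusted p = 5.85e-05), and Pemt, which uses it to make phosphatidylcholine, fell by 0.70 ± 0.18 (SD, n = 4, adjusted p = 0.00441). In all 3 of 8 measured genes of the group rose and 2 fell. One of those that rose, Nnmt, a nicotinamide methyltransferase, lost its call without pair 1, 2 or 3 (adjusted p = 0.0952, 0.151 and 0.147). Among 24 measured genes of amino acid breakdown and the urea cycle 2 rose and 3 fell, and without pair 2, 3 rose and 5 fell. Aass, of lysine breakdown, had 1.43, 2.19, 1.33 and 0.78 and rose by 1.43 ± 0.58 (SD, n = 4, adjusted p = 0.00034), and Arg1, arginase, rose by 1.12 ± 0.53 (SD, n = 4, adjusted p = 0.000908). Arg1 did not pass from the second arrays alone, at 0.60 (adjusted p = 0.294). Otc, an earlier enzyme of the urea cycle, fell by 0.92 ± 0.38 (SD, n = 4, adjusted p = 0.00209), and Glud1, glutamate dehydrogenase, fell by 0.80 ± 0.20 (SD, n = 4, adjusted p = 0.00129). Without pair 2, 8 of the 24 passed.

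Genes listed as responding to growth hormone or differing by sex were lower where they passed, with 1 exception. The list does not separate these kinds. In it 7 of 21 measured fell and 1 rose, with a median of -0.53. Ghr, the growth hormone receptor, was at -0.88 (adjusted p = 0.00181). Igfals, the plasma partner of IGF, had -0.95, -0.96, -1.26 and -0.46 and a mean of -0.91 ± 0.33 (SD, n = 4, adjusted p = 0.000309). Serpina6, which carries corticosteroids in plasma, lay between -0.92 in pair 4 and -2.03 in pair 3, with a mean of -1.49 ± 0.61 (SD, n = 4, adjusted p = 0.000217). Hsd3b1 and Elovl3, described above, are in the list too. Igf1 was at 0.09 ± 0.23 (SD, n = 4, adjusted p = 0.75) and did not pass. The rise was in Cyp17a1, a steroid hydroxylase, with 1.92, 3.43, 1.66 and 0.25, from the lowest in pair 4 to the highest in pair 2 (mean 1.82 ± 1.30, SD, n = 4, adjusted p = 0.0026). With the spread of the direct pairs alone Cyp17a1 did not pass (adjusted p = 0.157). Of the plasma binding proteins, Igfbp1 had 0.24 ± 0.23 (SD, n = 4, adjusted p = 0.294), and Igfbp2 rose by 0.46 ± 0.34 (SD, n = 4, adjusted p = 0.0486) but passed neither without pair 1, without pair 2 nor without pair 4 (adjusted p = 0.185, 0.108 and 0.165).

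Members of the plasma protein and complement lists were also lower where they passed, apart from Apoa4 and Igfbp2. Of 42 measured plasma proteins 9 fell and 2 rose, and of 16 measured complement genes 6 fell and 0 rose. These were 26.2% and 37.5%, against the 9.19% of all named genes. Mbl2, a lectin that starts complement activation, had -0.91, -0.52, -1.17 and -1.29 and a mean of -0.97 ± 0.34 (SD, n = 4, adjusted p = 0.00726). Hc, a terminal complement component, had -0.65, -0.98, -0.82 and -0.56 and a mean of -0.75 ± 0.19 (SD, n = 4, adjusted p = 0.00405, and 0.22 from the first arrays alone, at -0.27). Serpind1, an inhibitor of thrombin, had -0.92, -0.36, -1.53 and -0.90 and a mean of -0.93 ± 0.48 (SD, n = 4, adjusted p = 0.0037). Ttr, the thyroxine and retinol carrier, was at -0.86 ± 0.24 (SD, n = 4, adjusted p = 0.00189), but its turned ratio was above 0 on the first array of every pair and below 0 on the second, so its sign rests on the larger values of the second arrays. Without pair 1, 5 of the 42 and 3 of the 16 passed, and without pair 3, 3 of the 16. Among acute phase genes Lbp, a binder of lipopolysaccharide, rose by 0.73 ± 0.16 (SD, n = 4, adjusted p = 0.000881, and 0.0852 from the second arrays alone, at 0.51). Saa4 had -2.27, -0.99, -2.28 and -0.53 (adjusted p = 0.0184), with no pass without pair 1 or pair 3 (adjusted p = 0.118 and 0.098). Saa2 had -0.81, -2.60, -1.03 and -0.17, with an adjusted p of 0.0239 and no pass without pair 1, 2 or 3 (adjusted p = 0.0535, 0.103 and 0.0612).

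Of the complement genes that fell, C1qa and C1qc are made by macrophages. Kupffer cells, the macrophages of the liver, were measured by 13 markers, of which 6 fell and 0 rose. That was 46.2%, against the 9.19% of all named genes, with a median of -0.46 and a range from -0.82 to 0.27. Clec4f, a lectin particular to Kupffer cells in the mouse, had ratios of -0.69, -0.48, -0.87 and -0.36, all below 0, and a mean of -0.60 ± 0.23 (SD, n = 4, adjusted p = 0.00661). Tyrobp, an adaptor of myeloid receptors, was at -0.82 (adjusted p = 0.00842) and Cd5l at -0.68 (adjusted p = 0.0156). Without pair 1 or without pair 3, 2 of the 13 passed, and C1qa, C1qc and Cd5l were not among them. Camp and Mmp8 fell among 10 neutrophil markers, whose median was -0.07 and of which Mmp8 lost its call without pair 2 or 3 (adjusted p = 0.0795 and 0.0754), and S100a9, abundant in neutrophils, was at -0.11 (adjusted p = 0.758). In bulk tissue, fewer cells of a type and less RNA per cell cannot be told apart. Of 8 hepatocyte markers 1 fell, Ttr, and the median was 0.06. Of 5 adipocyte markers Car3 fell, and Lep, Lpl, Lipe and Pparg were between -0.08 and 0.15. Of 12 intestinal markers Apoa4 and Fabp2 rose, and the other 10 lay from -0.57 for Tff3 to 0.15 for Vil1 without passing. Of 10 endothelial markers 2 fell, of 9 erythroid, 7 cholangiocyte and 9 pancreatic markers 1 each, and 0 of these rose. For erythroid and pancreatic markers this was 11.1%, near the 9.19% of all named genes. The endothelial Tek and Kdr, the erythroid Fech and the pancreatic Reg2 lost their calls without pair 1 (adjusted p = 0.0862, 0.0913, 0.0893 and 0.102), Tek also without each of the other pairs in turn, and the cholangiocyte Aqp1 without pair 2 (adjusted p = 0.0944). Without the wide array 4 endothelial and 3 erythroid markers fell. Of 16 lymphocyte and 9 stellate cell and fibroblast markers 0 passed in limma, where 4 and 3 had an unadjusted p under 0.05. Without the wide array 4 of the 16 and 3 of the 9 passed. The part of these cells in the other results was not tested.

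Of 47 measured genes of the handling of foreign compounds 21 passed, 9 higher and 12 lower. That was 44.7%, against the 9.19% of all named genes. The number was the largest of any process list, but the share was larger in others, as in cholesterol synthesis and uptake at 75.0%. Without pair 1, 11 of the 47 passed. Nr1i3, which encodes the receptor CAR, had 0.91, 1.39, 0.60 and 0.84 and rose by 0.93 ± 0.33 (SD, n = 4, adjusted p = 0.000183). Gstm6, a glutathione transferase, had -1.77, -1.47, -1.67 and -0.81 (mean -1.43 ± 0.43, SD, n = 4, adjusted p = 5.85e-05). Adh1, alcohol dehydrogenase, had -0.91, -1.30, -1.19 and -0.69 (mean -1.02 ± 0.28, SD, n = 4, adjusted p = 0.000133), and Nqo2, a quinone reductase, -1.38, -0.87, -0.86 and -0.96 (mean -1.02 ± 0.24, SD, n = 4, adjusted p = 0.000167). The transferases that passed were mostly lower: Gstm6, Gstt1, Gstp1 and Gstm2 fell and Gstt2 rose. Without pair 1 Gstm2 and Gstt2 did not pass (adjusted p = 0.147 and 0.0566), nor did Gstm2 without pair 3 (adjusted p = 0.227).

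Genes of stress responses and of protein turnover moved both ways. Bnip3, a receptor for mitophagy, had 1.77, 1.62, 1.56 and 1.13 and rose by 1.52 ± 0.28 (SD, n = 4, adjusted p = 3.44e-06). Gabarapl1, a protein of the autophagosome membrane, had -1.20, -0.43, -0.98 and -1.10 and a mean of -0.93 ± 0.34 (SD, n = 4, adjusted p = 0.00189). Among 38 measured genes of autophagy and lysosome 5 rose and 4 fell, 23.7% against the 9.19% of all named genes, and 3 passed without pair 1 and 5 without pair 3. Of 42 measured proteasome and ubiquitin genes 4 rose and 4 fell, 19.0%, and without pairs 1, 2 and 3 in turn 4, 5 and 5 passed. Of those that fell, Psmb10 and Psmb8 are subunits of the immunoproteasome and Psme1 of a proteasome activator. Psmb10 had -0.93, -0.80, -0.91 and -0.37 and a mean of -0.75 ± 0.26 (SD, n = 4, adjusted p = 0.000591), Psmb8 was at -0.69 (adjusted p = 0.021, and 0.115 and 0.11 without pair 1 or 3), and Psme1 fell by 0.46 ± 0.15 (SD, n = 4, adjusted p = 0.00421). Psme1 passed neither from the first arrays alone, at -0.27, nor from the second alone, at -0.65 (adjusted p = 0.0818 and 0.0614). Psmd4, a ubiquitin receptor of the constitutive proteasome, rose by 0.67 ± 0.14 (SD, n = 4, adjusted p = 0.00198, and 0.241 from the second arrays alone, at 0.37). Of 36 measured ribosomal protein genes 1 rose and 1 fell, of 23 genes of oxidative phosphorylation 1 rose and 0 fell, and of 56 genes of cell cycle and DNA replication 1 rose and 3 fell, shares of 5.56%, 4.35% and 7.14%. Of the cell cycle genes 1 passed without pair 1 and 1 without pair 3, and 10 did without the wide array, 3 higher and 7 lower. In the unfolded protein response 15.8% of 38 passed, and in the antioxidant and hypoxia response 13.3% of 30. Of 15 measured clock genes 1 passed, 6.67%, near the 9.19% of all named genes. It was Bhlhe40, at -0.68 ± 0.49 (SD, n = 4, adjusted p = 0.0471), which did not pass without pair 1, 2 or 3 (adjusted p = 0.17, 0.181 and 0.0779). Per1, a clock gene that glucocorticoids also induce, had 1.00, 0.76, 0.02 and 0.29 (adjusted p = 0.136), and Dbp -0.03 ± 0.30 (SD, n = 4, adjusted p = 0.952).

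Most of the genes that passed, 290 of 441, lay outside the lists, where 7.02% of genes passed against 22.7% of those in a list. The lists were chosen with earlier results of these data known, which favours a larger share inside them. Lepr, the leptin receptor, had 2.45, 2.35, 2.53 and 0.95, with pair 4 far below the others, and rose by 2.07 ± 0.75 (SD, n = 4, adjusted p = 0.000169). St3gal5, which makes the ganglioside GM3, had 1.91, 2.05, 2.32 and 1.27 and rose by 1.89 ± 0.45 (SD, n = 4, adjusted p = 1.06e-05). Tbxas1, thromboxane synthase, had 1.39, 2.30, 1.80 and 1.57 and rose by 1.76 ± 0.39 (SD, n = 4, adjusted p = 2.78e-05). These 3 were higher in every pair and on all 8 arrays. Ncstn, a subunit of gamma-secretase, had 1.41, 2.79, 2.59 and 1.07 (mean 1.96 ± 0.85, SD, n = 4, adjusted p = 0.000213), and the sulphate carrier Slc26a2 had 0.71, 2.53, 2.30 and 0.95 (mean 1.62 ± 0.93, SD, n = 4, adjusted p = 0.000635), both higher in pairs 2 and 3 than in pairs 1 and 4. With the spread of the direct pairs alone Slc26a2 did not pass (adjusted p = 0.0923). Lower genes outside the lists included Inmt, a methyltransferase of amines, with -2.22, -1.53, -2.40 and -1.45 (mean -1.90 ± 0.48, SD, n = 4, adjusted p = 3.32e-05). Selenbp2, a selenium-binding protein, had -1.73, -2.43, -2.14 and -0.56 (mean -1.72 ± 0.82, SD, n = 4, adjusted p = 0.000555, and 0.0642 with the spread of the direct pairs alone). Srrm3, a factor of RNA splicing, had -1.61, -2.30, -1.89 and -0.69 (mean -1.62 ± 0.68, SD, n = 4, adjusted p = 0.000218). In the last 2 the smallest fall was again that of pair 4.

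The same 8 mice were measured a second time, through 4 high-fat livers: each fasted and each control mouse was also hybridised against a high-fat mouse, on 16 other arrays, and fasted over high-fat plus high-fat over control gives fasted over control without the 8 direct arrays. Both readings share the RNA of the mice, so they are set side by side with no test. The median gap between them was 0.12 over all named genes and the 95th percentile 0.41. Of the 441 genes that passed, 400 were nearer 0 by the indirect way, where choosing genes on the direct value favours larger direct values. Abcb11 was -1.89 directly and -1.75 indirectly, Inmt -1.90 and -1.74, Arg1 1.12 and 1.12, and Apoa4 4.99 and 4.16. For the first 3 of these genes the gap was below that 95th percentile, and for Apoa4 it was above it. These genes were picked with their values in view. The gap was also above that percentile for other genes described above. Among them were Cyp4a14 (3.62 directly and 2.77 indirectly), St3gal5 (1.89 and 1.06), Slc37a4 (1.56 and 0.89), Nr0b2 (-1.38 and -0.51) and Acss2 (-1.32 and -0.67). In 8 genes the readings lay more than 1 apart, and in each the direct one was farther from 0. Lepr was 2.07 directly and 0.46 indirectly, and Tbxas1 1.76 and 0.64. Nsdhl was -2.06 and -0.73, Cyp51 -1.31 and -0.19, and Scd1 -1.57 and -0.50, all of lipid synthesis. The others were Hsd3b1 (-2.37 and -1.23), Pkm (3.68 and 2.60) and Cyp7a1 (2.43 and 1.40). The median of the cholesterol list was -0.63 directly and -0.19 indirectly, and that of PPARalpha targets 0.37 and 0.08.

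**Figure D4:**
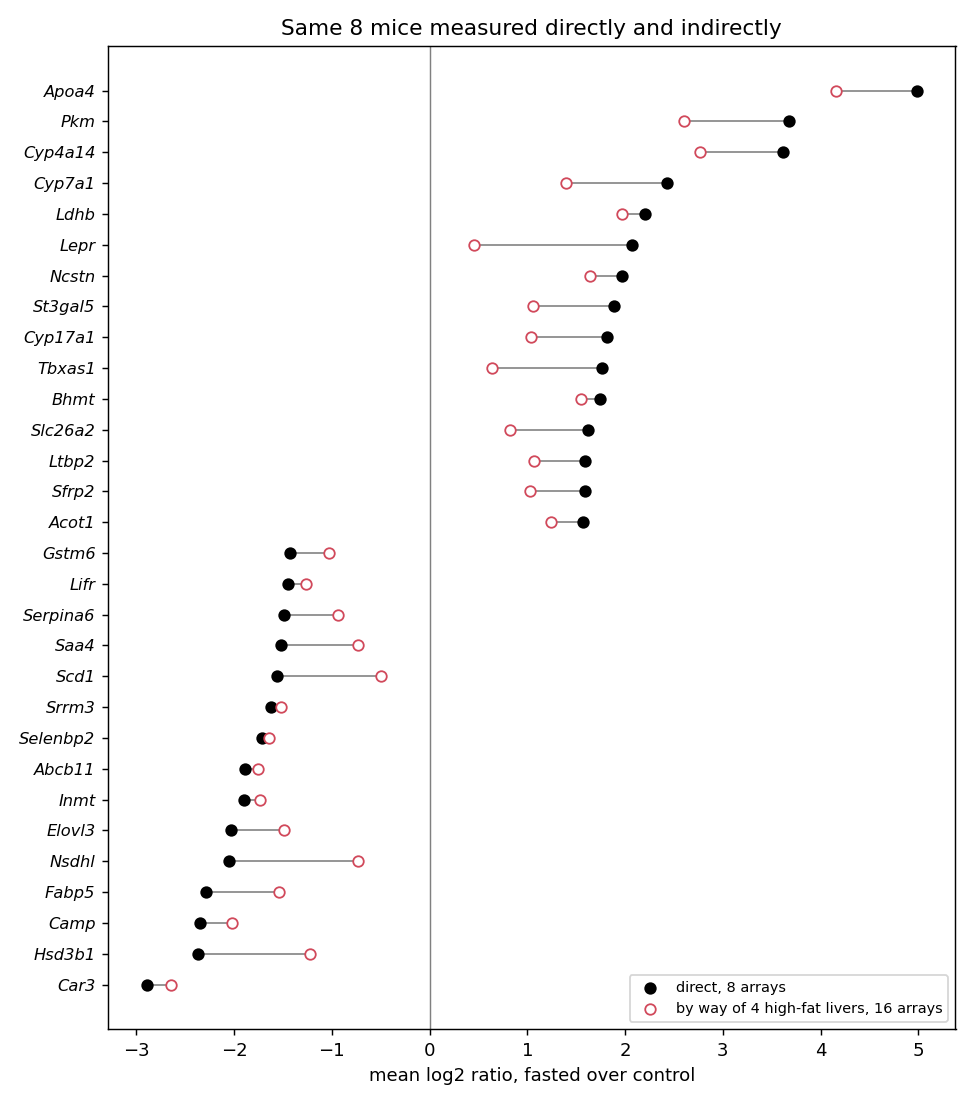
Mean log2 ratio of fasted over control (horizontal axis) for the 15 largest rises and 15 largest falls, from the 8 direct arrays (filled) and from 16 arrays by way of 4 high-fat livers (open), over the same 8 mice. Lepr has the widest gap, 2.07 against 0.46, and Abcb11 a narrow one, -1.89 against -1.75.

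In the 2 other comparisons of the series, which share mice with this one, 6 named genes passed for high-fat over control, 0.125%, and 158 for fasted over high-fat, 3.29%. Apoa4 was 1.60 in high-fat over control livers (adjusted p = 3.72e-05, n = 5) and 2.46 in fasted over high-fat livers (adjusted p = 2.82e-07, n = 5). Abcb11 was -0.07 (adjusted p = 1) and -1.53 (adjusted p = 1.26e-05) in the same order. Lepr was -0.09 (adjusted p = 1) and 0.39 (adjusted p = 0.583), so it passed only in the direct comparison of fasted and control livers, a difference between comparisons that was not tested.

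Some genes differed between pairs more than between groups. The median SD over the 4 pairs was 0.28 for all named genes, and 6 genes with the widest SD were followed through all 14 pairs. Dmbt1, a secreted scavenger receptor protein of epithelia, had 2.74, -0.36, -0.24 and -2.99 in the fasted and control pairs (adjusted p = 0.952). Its high-fat over control ratio was -4.87 in the pair with control mouse 3 and 4.91 in the pair with high-fat mouse 7, and between -0.11 and 0.04 in the other 3. Control mouse 3 was also the control of pair 4. Tff3, a trefoil peptide of mucous epithelia, had -0.09, 2.13, -1.34 and -2.99 (adjusted p = 0.751), and G0s2, an inhibitor of fat breakdown, 0.84, -2.86, -0.51 and -2.71 (adjusted p = 0.113). G0s2 did pass without pair 1 (adjusted p = 0.0122) and without the wide array (adjusted p = 0.0488). Stmn4, a stathmin of neurons, had -0.22, -2.41, -0.17 and 1.75, and Olfr70, an olfactory receptor, -0.37, -2.46, -0.15 and 1.59, low in pair 2 and high in pair 4 alike. For all of these but Cyp7a1 the sign differed between pairs.

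**Figure D5:**
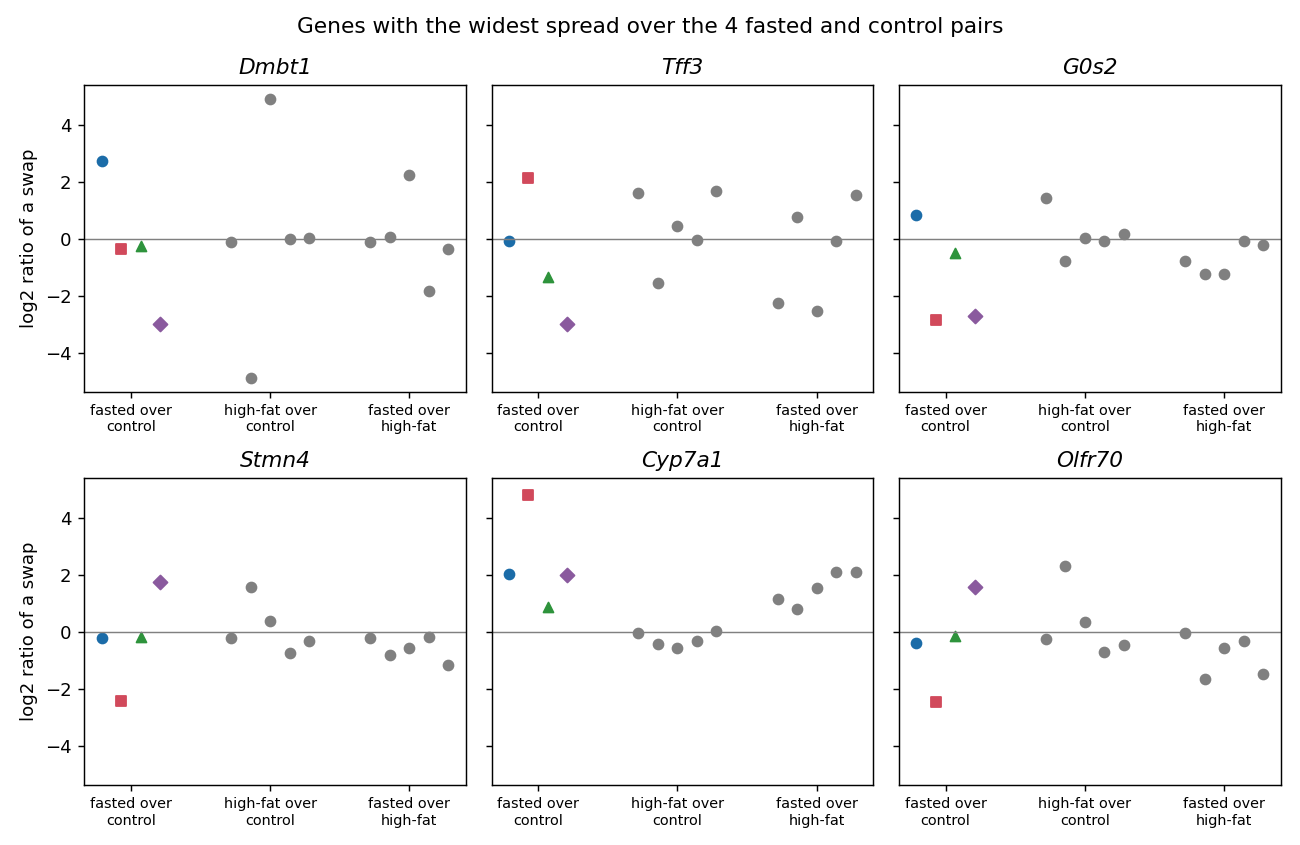
Log2 ratio of each of the 14 swaps (vertical axis) for the 6 genes with the widest SD over the fasted and control pairs, grouped by comparison; coloured points are the 4 fasted and control pairs in order and grey points the other swaps. Dmbt1 reaches 4.91 and -4.87 in single high-fat and control pairs, while Cyp7a1 is above 0 in every fasted pair.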

How the data were processed

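Liver RNA of 15 mice, 5 a group, was compared in 14 mouse pairs on 28 two-colour arrays of 16416 spots; 8 arrays, 4 pairs, set fasted against control livers. The deposited values are the authors' processed ratios of the dyes for every spot, taken as log2 ratios because their log base is not stated. The submitters' processing notes name limma alone, without saying for what. The sources used here do not say how background, dyes and poor spots were treated before deposit, nor on which genome build. Amplified RNA was coupled to Cy3 and Cy5, per the labels' protocols.

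Spots were named through the platform annotation: 9758 carried 1 gene symbol, 0 several and 6658 none. By Entrez number all 4799 symbols were found in the RefSeq table of GRCm38.p6, used for names. Spots of a gene were averaged (2 for 4797 genes, 4 for Mecom, 160 for Gapdh), and their 2 values differed by a median of 0.12. Unnamed spots were tested singly, 241 higher and 238 lower in fasted livers, which made 11457 features. There were 0 empty cells.

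Both arrays of a pair were turned to fasted over control and averaged, which cancels a dye bias that is equal on both if the dyes were exchanged, which the labels do not settle. The 14 pairs were fitted with 3 separate means in limma 3.58.1 under R 4.3.3 (lmFit, eBayes, with degrees of freedom of 11 residual and 4.46 prior), so the estimate is the mean of the 4 direct pairs. Mice shared between pairs of different comparisons were not modelled. Per the labels, every mouse number is its own animal. The steps were tested on simulated data. The alternatives were the spread of the direct pairs alone, a network of all pairs, centred arrays, centred and scaled arrays, each array of a swap alone, each spot singly, named genes only, array weights, robust moderation and each pair left out. An estimate without the array of the widest spread, in which the mean dye effect of the other 3 direct swaps was taken from the first array of pair 2, was chosen after seeing the data.

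The members, the 30 process lists and the 12 lists of cell markers were chosen with earlier results of these data known. The genes chosen for naming were the 15 largest rises and 15 largest falls that passed with 1 sign in 4 pairs, up to 4 passing members of each process list by p, a panel of 25 genes known in fasted liver, of which 16 were measured and 4 passed, the 6 genes of widest SD and 4 whose spots differed most. Not all of them are named above. Ltbp2 and Sfrp2, among the 15 largest rises, had means of 1.59 and 1.59. Of 25 measured glucocorticoid and cAMP responsive genes 2 rose and 1 fell, and of 16 iron and haem genes 1 rose and 3 fell. Other names fill out a list or marker set, picked with their values in view. The other panel genes had no named spot and are not analysed here.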

Additional observations from a re-analysis of the deposited data

Results flagged for a closer look

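Among the 131 genes chosen for naming, the 4 pairs were searched for a pair far from the other 3. Such a pair stood out in 6 genes. In unselected, independent groups chance alone would give about 1 in 20. Many of these genes were chosen on their values in the same pairs, and all share the same arrays. The number therefore cannot be set against that rate. Pair 4 was the one apart in 4 of the 6, with a log2 ratio of 0.95 for Lepr, -0.34 for Txn1 (thioredoxin), 0.070 for Cdk4 (a cell cycle kinase) and -0.24 for Khk, each nearer 0 than in the other pairs. In pair 3 Pcx was at 0.44, below the other pairs. In pair 2 Slc16a7 was at 1.45, above the other pairs. Of these 6 genes Cdk4 lost its call without pair 1, 2 or 3 (adjusted p = 0.155, 0.103 and 0.123).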

How the results depend on the processing

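The count of genes that passed, 441 (184 higher and 257 lower), moved most with the estimate of the spread and the choice of arrays. It was 57 (29 and 28) with the spread of the 4 direct pairs alone, 245 (lower 122) with arrays centred and scaled, 981 (higher 632) from the first arrays alone, 208 (67 and 141) from the second arrays alone, 735 (291 and 444) with array weights, which gave pair 2 a weight of 0.156 and pair 1 2.55, and 990 (lower 729) without the wide array. With each spot tested singly 290 genes were higher. Leaving out a pair gave counts from 250 to 464 in all, from 113 to 194 higher and from 137 to 298 lower. The share of higher genes was 41.7%, and 50.2% with scaled arrays, 64.4% with first arrays and 26.4% without the wide array. The cause was not tested. The network, centred arrays, robust moderation and named genes alone stayed within 1.5 times, at 534, 447, 432 and 466.

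Of 114 named genes that passed, 40 still passed with the direct spread alone, 83 with arrays scaled, 68 with the second arrays alone, 96 with the first, 111 with the network, 112 without the wide array and 86, 98, 89 and 106 without pairs 1 to 4 in turn. Bub3 and Ttr reversed with the first arrays alone, to 0.29 and 0.38. Other reversals were in genes that did not pass. With the second arrays alone they were Pck1 (-0.019), Ppargc1a (-0.23), Pdk4 (-0.14), Igf1 (-0.14) and Dbp (0.19). With the first arrays alone they were G6pc (0.17), Angptl4 (0.38), Pklr (-0.032) and Stmn4 (0.21). Ppara turned with the network (-0.0069), scaled arrays (-0.034), array weights (-0.18) and no wide array (-0.29), Dbp with the network (0.0745) and single spots (0.22), Dmbt1 with scaled arrays (0.011) and array weights (1.39), and Igf1 (-0.0093) and G0s2 (0.0068) with array weights. With 1 pair left out, G6pc ran from -0.27 to 0.21, Angptl4 from -0.35 to 0.048, Igf1 from -0.0004 to 0.17, Ppara from -0.25 to 0.20, Dbp from -0.13 to 0.096, Dmbt1 from -1.20 to 0.71, Tff3 from -1.47 to 0.23, Stmn4 from -0.93 to 0.45 and Olfr70 from -0.99 to 0.36. Fgf21, Per1, Pck1, Ppargc1a and Pdk4 passed with the first arrays alone (adjusted p = 0.00423, 0.00836, 0.00779, 0.000119 and 0.0322). With array weights Fgf21 and Per1 passed too (adjusted p = 0.00197 and 0.0177), and Fgf21 also without the wide array and with single spots (adjusted p = 0.00869 and 0.0331). No paired analysis was possible because the numbers in the titles name single mice; each ratio already lies within a pair. Ratios without spot brightness leave the depth behind each value unknown.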

Other observations

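Gapdh was spotted 160 times on each array. Its spots agreed closely within an array, with SDs from 0.0485 to 0.121. Its median over the spots, turned to fasted over control, differed by the array of the swap. It ran from 0.20 to 0.36 on the first arrays and from -0.38 to 0.02 on the second. The cause was not tested. Lgals8, a galectin, rose by 1.02 ± 0.50 (SD, n = 4; adjusted p = 0.000474 by limma), and its 2 spots gave 0.76 and 1.28. Sh3gl2, an endophilin, had spots at 0.08 and 0.68.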
